A study of Mus musculus with 8 samples.

Results

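A set of 10 genes that mark Mueller glia was followed in whole mouse retina after MPTP or saline: the water channel gene Aqp4, the potassium channel gene Kcnj10, the carbonic anhydrase gene Car14, the membrane protein genes Cd9 and Gpr37, the genes of the secreted proteins Dkk3, Clu and Apoe, the intermediate filament gene Vim and the transcription factor gene Sox9. They were taken from a named list, and all 10 of the 10 were measured among 19938 genes with a probe set of their own. Each had 1 probe set that names a single gene, so none of the 10 genes' values below depends on a choice between probe sets. For 999 genes of the array with over 1 such probe set, that with the highest mean was kept. Male C57BL/6 mice entered the study at 6 weeks of age and were given either saline or MPTP, a toxin that is converted to MPP+ and blocks complex I in cells that take it up through the dopamine transporter. Retinas were taken after 1 week (7 days) or 4 weeks (28 days), which gave 4 groups of 6 mice, and no group carried a genetic change. Each group has 2 arrays, and each array received the RNA of a pool of 4 retinas. Whether the pools came from separate mice is not said in the labels, so p-values measure only the spread between these arrays. Neither the MPTP dose nor its schedule is given in the sources used here.

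Mueller glia span the retina from the vitreous side to the photoreceptor layer and are its main glial cells. They carry potassium and water away from active neurons, chiefly through the Kir4.1 channel encoded by Kcnj10 and through aquaporin-4, which sit together on the end feet around blood vessels and at the vitreous. They also take up and recycle glutamate, buffer acid, supply lipid particles through apolipoprotein E and clusterin, and keep the cell type in place with SOX9. In injured retina they can turn reactive, with more of the filament protein vimentin and a change in channel expression. Several of these genes are not private to Mueller glia: Apoe, Clu and Vim are also made by other glia, vessels, pigment epithelium or lens, and Gpr37 and Cd9 by oligodendrocytes in brain. In RNA from a whole retina, fewer cells of a type and less RNA per cell cannot be told apart.

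Since SOX9 is one of the 10 proteins and binds a short core sequence shared by SOX factors, the promoters were searched for that core, spelled ACAAAG or ACAATG on either strand. RefSeq promoter windows (build GRCm38.p6, 250 bases before to 50 bases after a start of transcription) were matched for 6 of the 10 genes, with 8 windows in all. A core was found in 2 of the 8 windows, a window each of Apoe and Kcnj10, and in 28.6% of all 32851 promoter windows. The other Apoe windows had none. The matches in the windows of these 6 genes did not overlap each other. The homeodomain sequence TAATTA was in none of the 8 windows and in 5.29% of all. The windows had a median of 12.5 CpG pairs, against 7 over all windows, and a median GC content of 60.2% against 52.7%. Several of the 8 windows are of Apoe, some of them sharing bases, so Apoe weighs more in these medians than the other genes. Printed 5′ to 3′ are the 2 windows with a core and that of Cd9, the gene with the lowest MPTP effect over both times. Only the bases up to the start of transcription are shown, plus the first 6 transcribed bases for Kcnj10, where the core begins at the first of them. Capitals mark the SOX core. In Apoe the cores lie 144 and 54 bases before the start, the nearer one on the opposite strand, and Cd9 has none in its window. A match describes the letters only and does not show that a factor binds there.
Kcnj10 (chr1:172340960-172341215, plus strand): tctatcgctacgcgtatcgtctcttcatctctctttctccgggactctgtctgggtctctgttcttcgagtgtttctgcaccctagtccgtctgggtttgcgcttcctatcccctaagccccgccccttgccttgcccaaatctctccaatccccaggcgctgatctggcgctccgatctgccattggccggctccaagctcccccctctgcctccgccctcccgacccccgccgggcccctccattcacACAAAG
Apoe (chr7:19699189-19699438, minus strand): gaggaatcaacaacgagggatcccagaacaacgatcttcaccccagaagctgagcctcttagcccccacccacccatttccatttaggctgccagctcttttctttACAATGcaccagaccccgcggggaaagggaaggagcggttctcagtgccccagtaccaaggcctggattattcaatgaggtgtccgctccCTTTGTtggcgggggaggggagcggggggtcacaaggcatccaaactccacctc
Cd9 (chr6:125494761-125495010, minus strand): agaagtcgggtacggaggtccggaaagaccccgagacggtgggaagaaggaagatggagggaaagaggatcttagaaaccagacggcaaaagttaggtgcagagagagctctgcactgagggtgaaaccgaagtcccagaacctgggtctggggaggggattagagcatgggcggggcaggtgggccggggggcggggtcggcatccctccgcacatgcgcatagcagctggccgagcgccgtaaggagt

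Signal is given as log2 units of RMA, the authors' normalization across arrays, in which 1 unit is a 2-fold difference. Levels of different genes are not compared with each other, since each probe set has its own response. For the same reason the rank of a mean signal among all genes of the array is only a rough guide to whether a probe set reads above the dim ones. By that guide the 10 genes lay between percentile 72.0 (Kcnj10) and 97.5 (Clu). Of 33 other Mueller glia genes measured, Glul, the glutamine synthetase gene, lay at percentile 99.8, the glutamate transporter gene Slc1a3 at 87.0 and Rlbp1, the retinaldehyde-binding protein gene, at 84.5, while 7 lay below percentile 50. The rod genes Gnat1 and Sag, read as a check of the retina label, lay at percentiles 100 and 99.96. Saline 1 week array 2 and MPTP 1 week array 1 stand apart from the other 6 arrays on the first principal component (scores 15.7 and 19.1, against -9.39 to -0.39), which holds 38.3% of the variance. MPTP 1 week array 2 stands apart in tissue: its lens markers had a mean of 7.75 against 6.68 to 7.24 elsewhere, and its pigment epithelium markers 7.76 against 7.09 to 7.52. Results at 1 week are therefore given with and without these arrays where they matter.

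**Figure D1:**
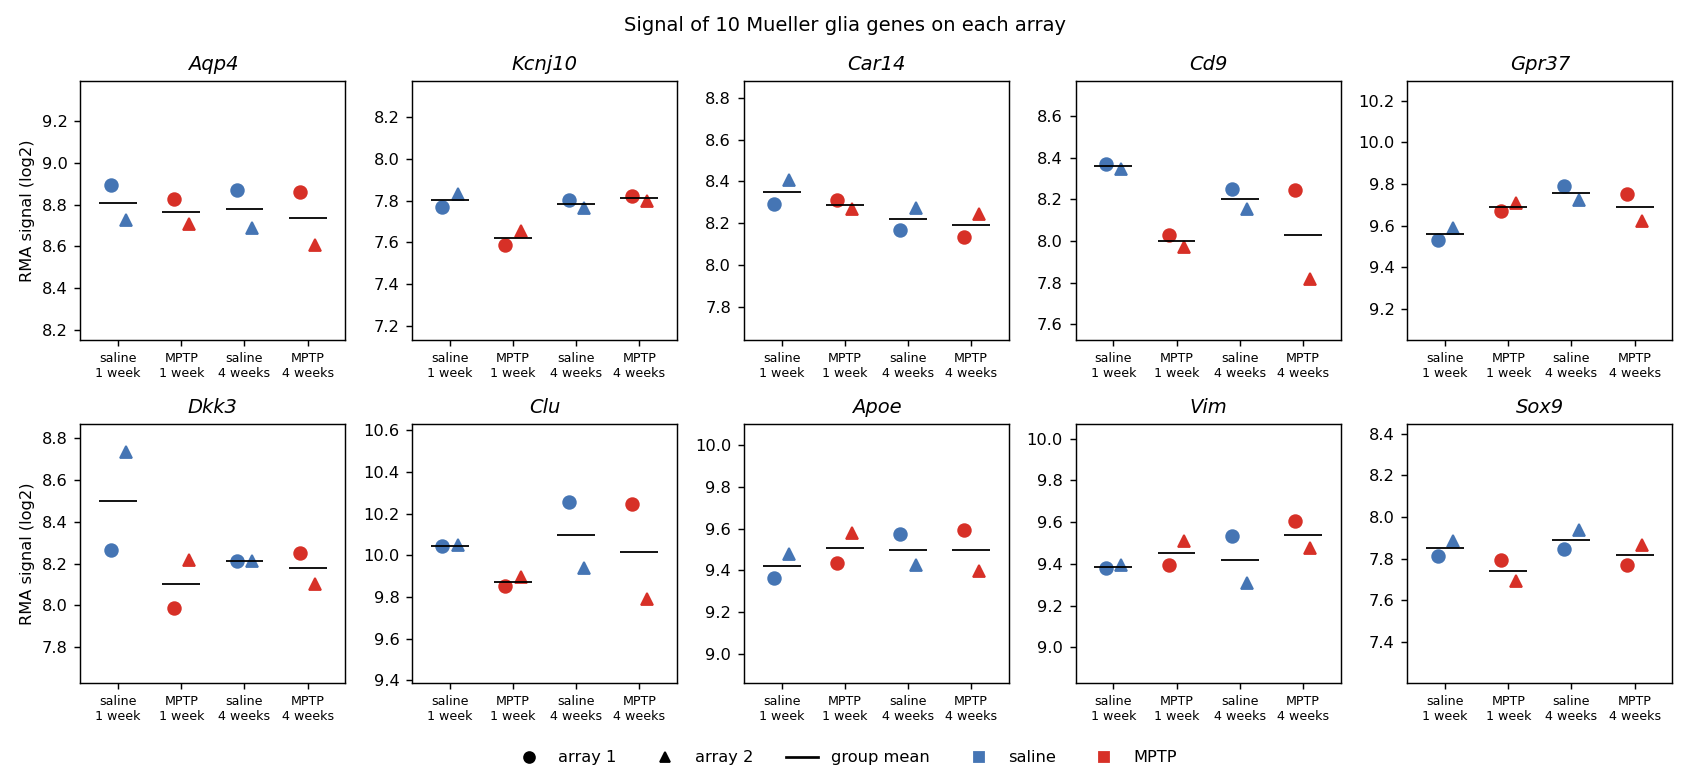
RMA signal (log2) of each gene on each of the 8 arrays, by group, with circles for array 1, triangles for array 2, blue for saline, red for MPTP and a bar at the group mean. Every panel spans the same number of log2 units, so distances can be compared between panels. For Cd9 at 1 week both MPTP arrays, at 8.03 and 7.97, lie below both saline arrays, at 8.37 and 8.35, while at 4 weeks the arrays of each group overlap for all 10 genes.

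The early response was read by comparing MPTP with saline retinas at 1 week. Cd9 and Dkk3 had the lowest values of the 10, 1.28-fold and 1.32-fold lower in MPTP retinas, followed by Kcnj10 and Clu at 1.13-fold each. Gpr37 stood 1.09-fold higher. None of the 10 passed limma after adjustment over all genes (smallest adjusted p = 0.99976), and 0 of 19938 genes passed (0% of all genes), so none of these differences is called a change. At an unadjusted p under 0.05, 2 of the 10 stood lower and none higher, against 2.36% and 1.87% of all genes. The median over the 10 was -0.08, with 3 above 0 and 7 below, against a median of -0.0081 and 46.9% above 0 over all genes. Among genes above percentile 50 of the mean signal, where all 10 lie, the median was 0.0096.

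Cd9 encodes a tetraspanin, a membrane protein that organizes adhesion receptors and is common on extracellular vesicles. It measured 8.37 and 8.35 on the saline arrays and 8.03 and 7.97 on the MPTP arrays at 1 week. Both saline values lay above both MPTP values, and the arrays of a group differed by 0.02 and 0.06. The log2 fold change was -0.36 ± 0.13 (SE of the limma fit, n = 2 per group) with an unadjusted 95% interval of -0.65 to -0.07. Without any 1 of the arrays it stayed between -0.39 and -0.33, and without the arrays that stand apart, which leaves 1 array a group, it was -0.40.

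Dkk3 encodes a secreted glycoprotein of the Dickkopf family. It measured 8.27 and 8.74 on the saline arrays and 7.99 and 8.22 on the MPTP arrays. The groups did not overlap, but saline array 2 stood 0.47 above its partner and was the highest of all 8. The log2 fold change was -0.40 ± 0.15, with a 95% interval of -0.73 to -0.07. It was -0.16 without saline array 2 and -0.63 without saline array 1. Both extreme Dkk3 values came from the arrays that stand apart, and without those 2 arrays the fold change was -0.05.

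Kcnj10, the Kir4.1 channel gene, measured 7.77 and 7.83 on the saline arrays and 7.59 and 7.65 on the MPTP arrays. The MPTP arrays were the lowest of all 8 for this gene. The log2 fold change was -0.18 ± 0.08, with a 95% interval from -0.37 to 0.0082, and it lay between -0.21 and -0.15 when single arrays were left out and at -0.12 without the arrays that stand apart. Its partner on the end feet, Aqp4, measured 8.89 and 8.73 on saline and 8.83 and 8.71 on MPTP arrays. These groups overlap, and the fold change was -0.04 ± 0.12. The Aqp4 value turned to 0.04 without saline array 1 and to 0.02 without MPTP array 2. Without the arrays that stand apart it was -0.19.

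Clu, the gene of clusterin, an extracellular chaperone, measured 10.04 and 10.05 on saline and 9.85 and 9.89 on MPTP arrays at 1 week. The arrays of each group were close, with gaps of 0.0059 and 0.04, and the groups did not overlap. The fold change was -0.17 ± 0.15, its error being shared with the 4 week groups, where Clu varied most. Apoe, the main lipid carrier of glia, stood at 0.09 ± 0.11 and Vim at 0.07 ± 0.10. Both measured highest at 1 week on MPTP array 2, the array with the highest lens and pigment epithelium signal (Apoe 9.58 and Vim 9.51, against 9.36 to 9.48 and 9.38 to 9.40 on the other 3). Without that array they were 0.01 each, and the part of those tissues in the result was not tested. Without the arrays that stand apart, where that array is the only MPTP array left at 1 week, Apoe was 0.22 and Vim 0.13.

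Gpr37, an orphan receptor gene of glia, measured 9.53 and 9.59 on saline and 9.67 and 9.71 on MPTP arrays. All MPTP values lay above the saline values, with a fold change of 0.13 ± 0.09. Sox9 measured 7.82 and 7.88 on saline and 7.79 and 7.69 on MPTP arrays, at -0.11 ± 0.09, and at -0.06 without MPTP array 2. Car14, a membrane-bound carbonic anhydrase gene, stood at -0.06 ± 0.09 with overlapping groups. In all, 5 of the 10 genes were lower without overlap between the groups (Kcnj10, Cd9, Dkk3, Clu and Sox9), against 13.8% of all genes, and 2 were higher (Gpr37 and Vim), against 12.5%. For 5 of the 10 the gap between arrays of a group exceeded the MPTP effect, against 83.7% of all genes.

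**Figure D2:**
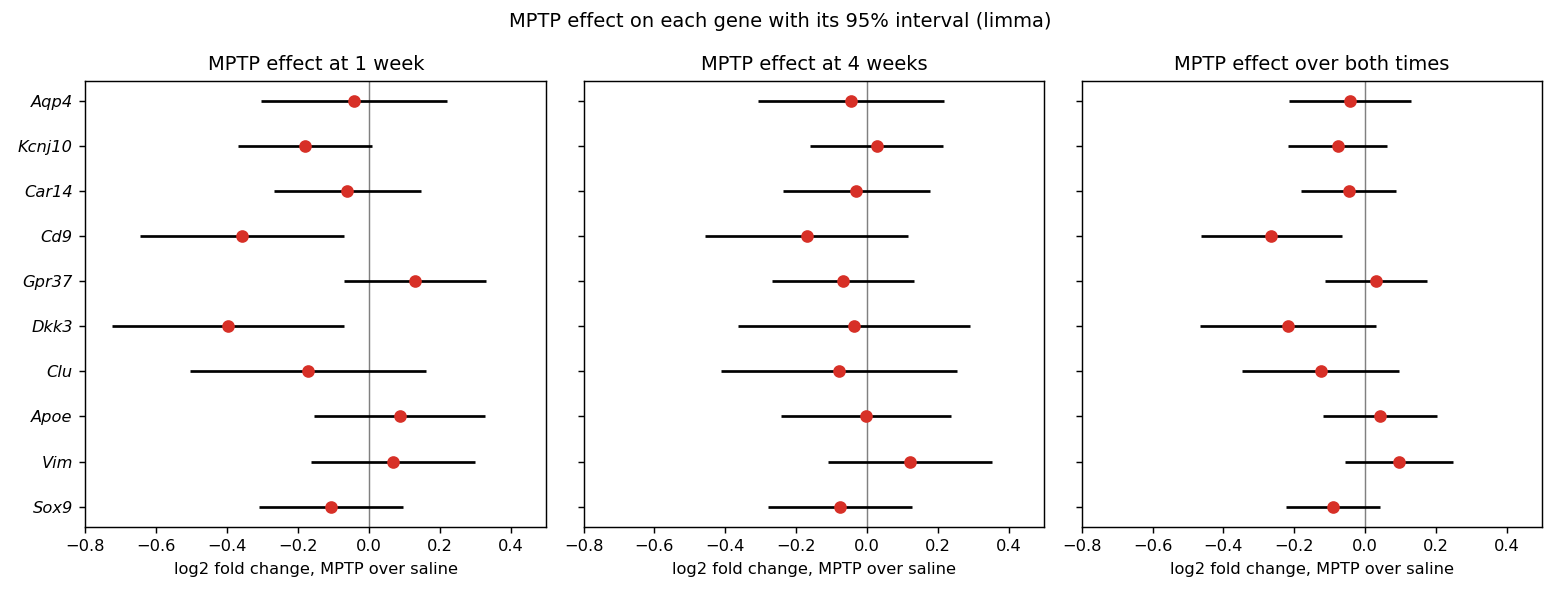
Log2 fold change of MPTP over saline for each gene (points) with unadjusted 95% intervals from limma (lines), at 1 week and 4 weeks (2 arrays per group) and over both times (4 per treatment). Intervals leave out 0 for Cd9 and Dkk3 at 1 week and for Cd9 over both times, and none of the 10 passed after adjustment over all genes.

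The late response was read from the same comparison at 4 weeks. No gene of the 10 separated the groups, against 35.3% of all genes, and the largest differences were Cd9 at -0.17 ± 0.13 and Vim at 0.12 ± 0.10. The median was -0.04 with 2 above 0 and 8 below, against 0.0043 and 51.8% above 0 over all genes. Among genes above percentile 50 of the mean signal, where all 10 lie, the median was -0.016. By limma 0 of the 10 and 0 of 19938 genes passed (smallest adjusted p among the 10 = 0.99988), and 0 of the 10 had an unadjusted p under 0.05, against 1.91% of all genes.

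Cd9 measured 8.25 and 8.16 on the saline arrays at 4 weeks and 8.24 and 7.82 on the MPTP arrays. MPTP array 1 lay inside the saline range and MPTP array 2 below it, so a single array carries the difference: the fold change was -0.38 without MPTP array 1 and 0.04 without MPTP array 2. Clu measured 10.26 and 9.94 on saline and 10.24 and 9.79 on MPTP arrays, at -0.08 ± 0.15. Here the arrays of a group stood 0.32 and 0.45 apart, more than the treatments did, and the same held for all 10 genes at 4 weeks in at least 1 group, against 77.4% of all genes.

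Aqp4 measured 8.87 and 8.69 on saline and 8.86 and 8.61 on MPTP arrays, at -0.05 ± 0.12. Its 95% interval, -0.31 to 0.22, leaves room for a difference of either sign. Vim measured 9.53 and 9.31 on saline and 9.61 and 9.47 on MPTP arrays. MPTP array 1 was the highest of all 8, but MPTP array 2 lay inside the saline range. The Vim value was 0.0082 without saline array 2 and 0.23 without saline array 1. The other genes stood closer to 0 than Cd9 and Vim: Sox9 at -0.08 ± 0.09, Gpr37 at -0.07 ± 0.09, Dkk3 at -0.04 ± 0.15, Car14 at -0.03 ± 0.09, Kcnj10 at 0.03 ± 0.08 and Apoe at -0.0039 ± 0.11. Kcnj10, which was lowest in the MPTP arrays of 1 week, measured 7.82 and 7.80 on the MPTP arrays of 4 weeks against 7.81 and 7.76 on saline.

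Over both times, with time as a term, Cd9 had the lowest value of the 10, 1.20-fold lower with MPTP, and Vim the highest, 1.07-fold higher. Cd9 stood at -0.26 ± 0.09 (n = 4 per treatment) with a 95% interval of -0.46 to -0.07, and Dkk3 at -0.22 ± 0.11. Cd9 on MPTP 4 weeks array 1, at 8.24, lay inside the range of the saline arrays, so the treatments overlap. The value of Cd9 lay between -0.37 and -0.20 when single arrays were left out, and at -0.25 without the arrays that stand apart. That of Dkk3 was -0.09 without saline 1 week array 2 and -0.04 without the arrays that stand apart. By limma 0 of the 10 passed (smallest adjusted p = 0.973), as did 0% of all genes. At an unadjusted p under 0.05 only Cd9 was lower, against 2.47% of all genes, and none of the 10 was higher, against 2.3%. No gene of the 10 separated the 4 MPTP from the 4 saline arrays, against 2.5% of all genes.

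An exact permutation of the arrays within each time, two-sided and with 36 arrangements, cannot give a p below 0.0556. The exact test gave p = 0.111 for Cd9, 0.111 for Sox9 and 0.167 for Dkk3, and 0.222 to 0.667 for the other 7 genes, with no adjustment over the 10. Vim stood at 0.09 ± 0.07, Apoe at 0.04 ± 0.07 and Gpr37 at 0.03 ± 0.07. Without MPTP 1 week array 2, whose lens and pigment epithelium means were the highest, Apoe was 0.0034, Gpr37 0.0038 and Vim 0.077. Below 0 were Clu at -0.13 ± 0.10, Sox9 at -0.09 ± 0.06, Kcnj10 at -0.08 ± 0.06 (-0.02 without the arrays that stand apart), Car14 at -0.05 ± 0.06 and Aqp4 at -0.04 ± 0.08. The 95% interval of Aqp4 ran from -0.22 to 0.13 and that of Vim from -0.06 to 0.25. The median over the 10 was -0.06, with 3 above 0 and 7 below, against -0.0017 and 49% above 0 over all genes. Among genes above percentile 50 of the mean signal, where all 10 lie, the median was -0.0029.

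**Figure D3:**
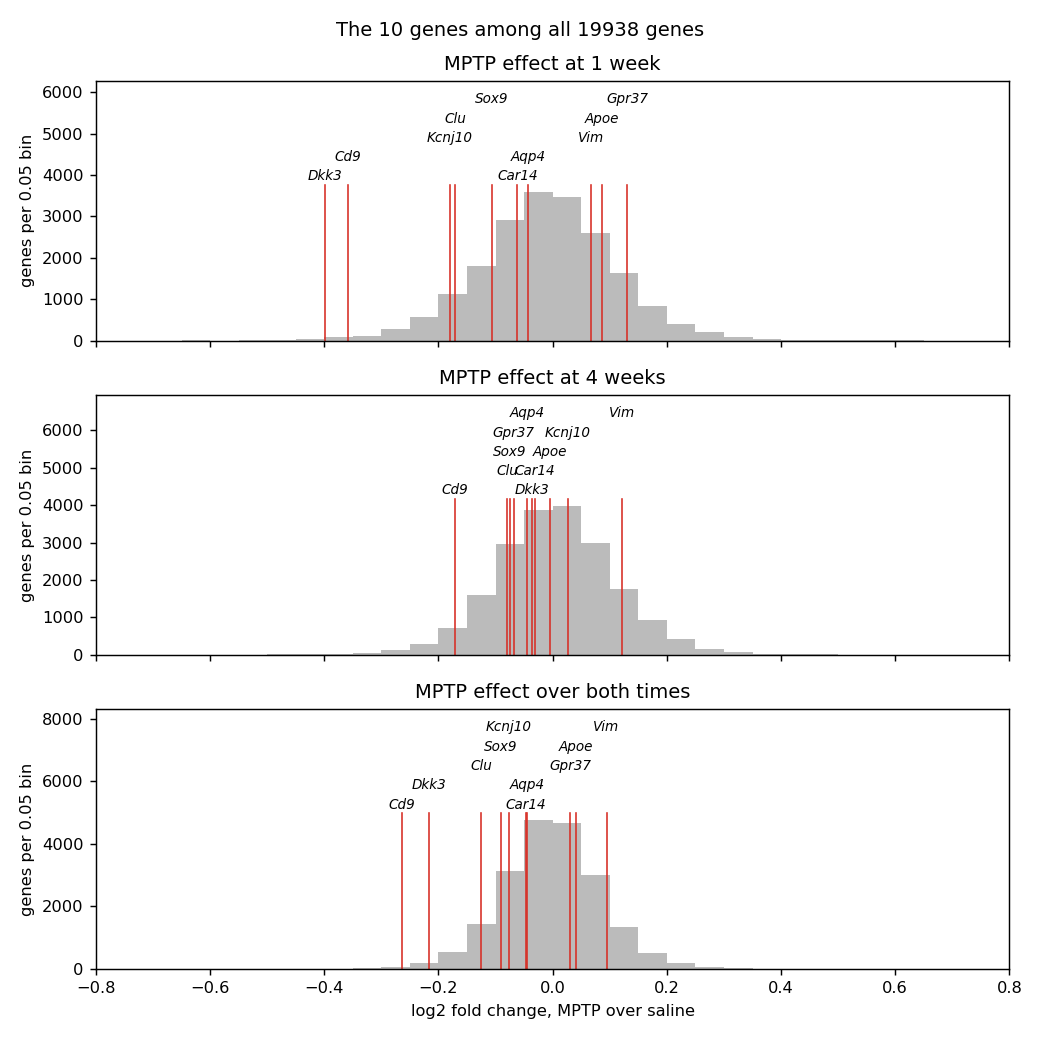
Number of genes per bin of log2 fold change (grey bars, bins of 0.05) over all 19938 genes, with the value of each of the 10 genes as a red line, at 1 week, at 4 weeks and over both times. Cd9 and Dkk3 lie in the lower tail at 1 week at -0.36 and -0.40, and at 4 weeks all 10 lie between -0.17 and 0.12. Labels are staggered in height for legibility.

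Whether the early and late values differ was tested as the MPTP effect at 4 weeks minus that at 1 week. The widest differences were those of Dkk3 at 0.36 ± 0.21, Kcnj10 at 0.21 ± 0.12, Gpr37 at -0.20 ± 0.13 and Cd9 at 0.19 ± 0.18. None passed limma (smallest adjusted p of the 10 = 0.99991, 0% of all genes called), and 0 of the 10 had an unadjusted p under 0.05, against 1.96% of all genes. The lower Kcnj10 and Dkk3 values at 1 week were not shown to differ from those at 4 weeks. Without saline 1 week array 2 the Dkk3 difference was 0.13 and without both arrays that stand apart 0.01, and without MPTP 4 weeks array 1 that of Cd9 was -0.03. The remaining genes stood at 0.09 ± 0.21 for Clu, -0.09 ± 0.15 for Apoe, 0.05 ± 0.15 for Vim, 0.03 ± 0.13 for Car14, 0.03 ± 0.13 for Sox9 and -0.0019 ± 0.17 for Aqp4.

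Between 1 and 4 weeks in saline retinas, Gpr37 was 1.15-fold higher and Dkk3 1.22-fold lower at the later time. Gpr37 measured 9.53 and 9.59 at 1 week and 9.79 and 9.72 at 4 weeks, a change of 0.20 ± 0.09 without overlap. Dkk3 stood at -0.29 ± 0.15, Cd9 at -0.16 ± 0.13 and Car14 at -0.13 ± 0.09, all 3 without overlap. So 3 of the 10 were lower without overlap, against 15.1% of all genes, and 1 was higher, against 12.7%. The value of Dkk3 was -0.05 without saline 1 week array 2. The others lay between -0.03 (Aqp4) and 0.08 (Apoe), with Kcnj10 at -0.02, Vim at 0.03, Sox9 at 0.04 and Clu at 0.05. By limma 0 of the 10 passed (smallest adjusted p = 0.99967, 0% of all genes called), and 0 of the 10 had an unadjusted p under 0.05, against 2.13% of all genes.

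Between 1 and 4 weeks in MPTP retinas, Kcnj10 was 1.14-fold higher at the later time. It measured 7.59 and 7.65 at 1 week and 7.82 and 7.80 at 4 weeks, a change of 0.19 ± 0.08 without overlap, and between 0.16 and 0.22 when single arrays were left out. Kcnj10 alone of the 10 had an unadjusted p under 0.05, against 9.79% of all genes, and it did not pass limma after adjustment (adjusted p = 0.507, 0% of all genes called). Without overlap, 1 of the 10 was higher (22.8% of all genes) and 1 was lower, Car14 at -0.10 ± 0.09 (21.5%), which was -0.0051 after quantile normalization. Clu stood at 0.14 ± 0.15, Vim at 0.09 ± 0.10, Dkk3 at 0.07 ± 0.15, Sox9 at 0.07 ± 0.09 and Cd9 at 0.03 ± 0.13. Gpr37 at -0.0022 ± 0.09, Apoe at -0.01 ± 0.11 and Aqp4 at -0.03 ± 0.12 lay nearest to 0. This comparison shares its arrays with the MPTP effects, so the Kcnj10 value here and that at 1 week rest on the same 2 arrays.

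The group means of Kcnj10 were 7.80 in saline and 7.62 in MPTP at 1 week, and 7.78 and 7.81 at 4 weeks, so that MPTP at 1 week was the only group apart from the rest by more than its arrays differed. The means of Cd9 were 8.36 ± 0.02 (SD, n = 2) in saline and 8.00 ± 0.04 in MPTP at 1 week, and 8.20 ± 0.07 and 8.03 ± 0.30 at 4 weeks. Saline at 1 week was the highest Cd9 group. MPTP at 4 weeks, with arrays at 8.24 and 7.82, overlapped saline at 4 weeks and also reached below MPTP at 1 week. Saline at 4 weeks, at 8.25 and 8.16, lay above MPTP at 1 week, at 8.03 and 7.97. The means of Aqp4 lay between 8.74 and 8.81, within the gap of its arrays in each group.

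**Figure D4:**
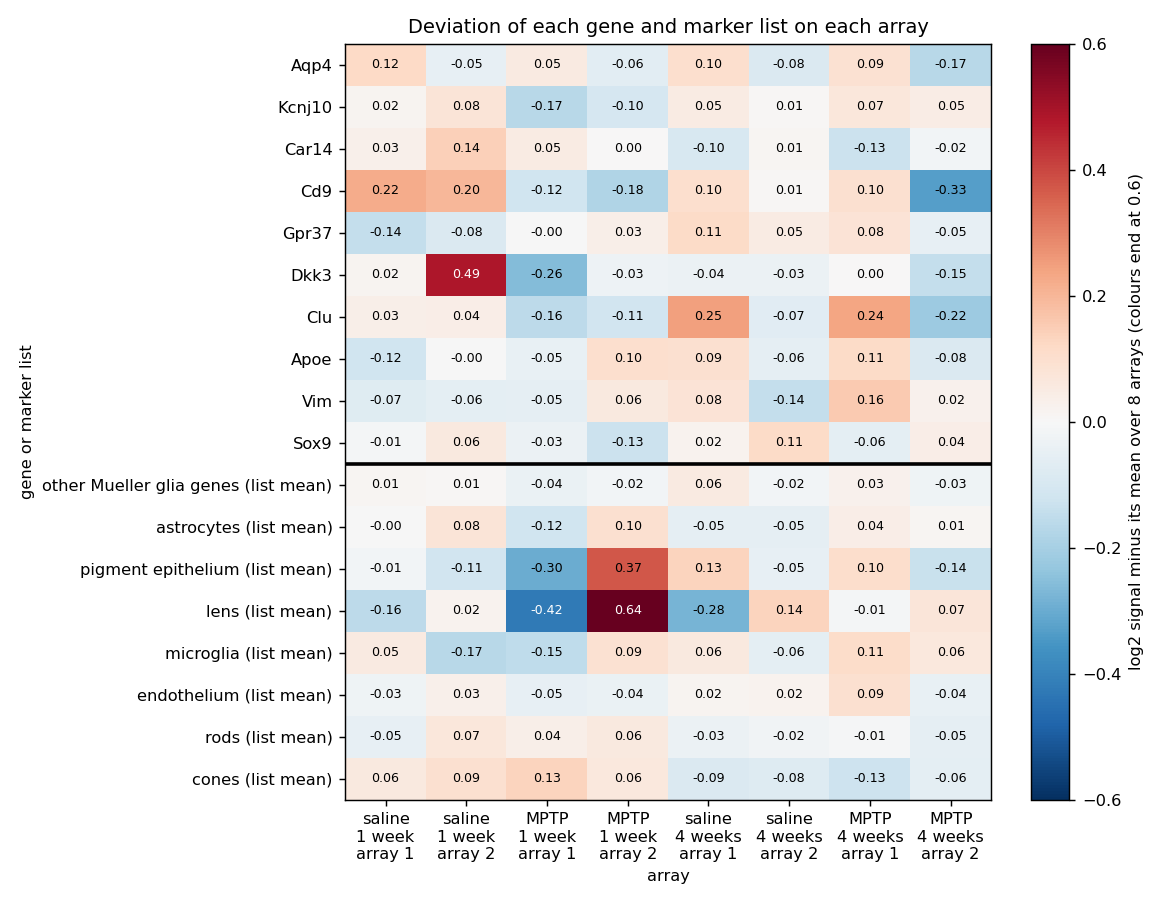
Log2 signal of each gene, and mean log2 signal of each marker list, minus its mean over the 8 arrays, with red above and blue below that mean and the value printed in each cell. Columns are arrays and the black line parts the 10 genes from the lists. Lens and pigment epithelium lists are highest on MPTP 1 week array 2 (0.64 and 0.37), where Cd9 and Sox9 are low and Apoe is high. Cd9 is also low on MPTP 1 week array 1, where both lists are lowest, and Cd9 is lowest on MPTP 4 weeks array 2.

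Other genes of Mueller glia were read from a wider list, of which 33 of 34 were measured. Over both times 15 stood above 0 and 18 below with a median of -0.0072, and 0 passed limma after adjustment, as in each other comparison. Rlbp1 stood lowest at -0.40 ± 0.08 and did not pass (adjusted p = 0.973). It measured 8.65 and 8.78 on saline and 8.19 and 8.20 on MPTP arrays at 1 week, and 8.59 and 8.58 against 8.44 and 8.16 at 4 weeks. Rlbp1 was thus lower on every MPTP array than on any saline array, as were 3 of the 33 genes, against 1.49% of all genes. Mfge8, the gene of a secreted bridge for engulfment, stood at -0.17 ± 0.07, Sox2, a progenitor and glial transcription factor gene, at 0.15 ± 0.07 and Spc25, a kinetochore gene, at -0.11 ± 0.06. Glul stood at -0.07 ± 0.07 and Slc1a3 at 0.05 ± 0.06.

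At 1 week the median of these 33 genes was 8.1e-04 with 17 above 0, and 2 had an unadjusted p under 0.05, Rlbp1 at -0.52 ± 0.11 and Mfge8 at -0.22 ± 0.10, against 4.22% of all genes. Sox2 stood at 0.21 ± 0.11 and Cav1, the caveolin gene, at 0.22 ± 0.12. Glul stood at -0.07 ± 0.10 and Slc1a3 at 0.0094 ± 0.09. At 4 weeks the median was -0.0079 with 15 above 0, and Rlbp1 at -0.28 ± 0.11 alone had an unadjusted p under 0.05, against 1.91% of all genes. Spc25 stood at -0.15 ± 0.09, Id3 at -0.13 ± 0.09 and Mfge8 at -0.13 ± 0.10, with Glul at -0.08 ± 0.10 and Slc1a3 at 0.09 ± 0.09. By role over both times, 9 genes of transport and metabolism had a median of 0.01, 14 of transcription and Notch signalling -0.02, and the other 10, mostly of surface and matrix but with Spc25 among them, -0.04. In saline between the times, Nfix, a factor of late glial development, stood at 0.25 ± 0.09, and in MPTP Spc25 stood at -0.24 ± 0.09, Id1 at 0.20 ± 0.09 and Gpr37l1, the close relative of Gpr37, at 0.26 ± 0.12.

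The partners of the 10 proteins were read as 42 of 45 listed genes. Car2, Sox2, Sox8 and Gpr37l1 are also in the wider list of Mueller glia genes, and Gfap is also among the astrocyte markers. Over both times 24 stood above 0 with a median of 0.0067, 0 passed, and 3 of the 42 had an unadjusted p under 0.05, near the share of all genes, 4.76%. Those 3 were Slc16a1, the lactate transporter MCT1, at -0.21 ± 0.09, Car4, a carbonic anhydrase, at 0.15 ± 0.06 and Lrp8, a receptor for apolipoprotein E, at -0.16 ± 0.07. Nes, the filament gene nestin, stood at 0.21 ± 0.10. The 7 measured genes of the end foot complex around Kir4.1 and aquaporin-4 had a median of 0.01 and a range of -0.11 to 0.08. Of the 6 tetraspanin partner genes, 5 stood above 0 (median 0.08), beside Cd9 at -0.26. The 7 lipoprotein genes had a median of -0.06, the 6 Wnt genes -0.03 and the 4 Sox relatives 0.10. At 1 week the 42 genes had a median of 7.6e-04, with Lrp8 at -0.22 ± 0.10, Slc16a1 at -0.24 ± 0.13 and Nes at 0.25 ± 0.15. At 4 weeks it was 4.0e-04, with Igsf8, which binds Cd9 in the membrane, at 0.20 ± 0.08, Car4 at 0.21 ± 0.10, Slc16a1 at -0.19 ± 0.13 and Abcg1, a cholesterol exporter gene, at -0.13 ± 0.10.

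Markers of the other cells in the pools were read in the same fit. All 10 pigment epithelium markers and all 12 lens markers were measured. The pigment epithelium mean was 7.37 and 7.28 on saline and 7.09 and 7.76 on MPTP arrays at 1 week, and 7.52 and 7.34 against 7.49 and 7.25 at 4 weeks. The lens mean was 6.95 and 7.12 against 6.68 and 7.75 at 1 week, and 6.83 and 7.24 against 7.09 and 7.18 at 4 weeks. At each time both lists thus varied more between the arrays of at least 1 group than between the treatments. Cryaa, a lens crystallin gene, and Rpe65, of the pigment epithelium, had mean signals at percentiles 82.4 and 80.3. The 6 astrocyte markers had means of 6.41 to 6.63, with Gfap at percentile 40.4, and the 8 microglia markers 6.34 to 6.62, with Aif1 at 17.7. Over both times the median was 0.0038 for astrocyte, 0.04 for microglia, 0.01 for endothelium, -0.05 for pericyte and -0.05 for oligodendrocyte markers. The widest medians were those of lens markers at 0.11, with 10 of 12 above 0, and of horizontal cell markers at 0.08, with 5 of 5 above 0. Of all genes, 49% stood above 0 over both times. At 1 week, where Cd9 stood lower, 0 of 5 oligodendrocyte markers stood above 0 (median -0.08, 2 lower without overlap). Of 6 pericyte markers 0 stood above 0 (median -0.11, 1 lower without overlap), and of 7 endothelium markers 1 did (median -0.04, 1 lower without overlap). By mean signal 4 of the 5 oligodendrocyte, 4 of the 6 pericyte and 5 of the 7 endothelium markers lay below percentile 50. The part of these cells in the Cd9 value was not tested. At 1 week 5 of 5 horizontal cell markers stood above 0, 4 of them without overlap, and 11 of 12 lens markers. Of all genes at 1 week, 46.9% stood above 0, 13.8% were lower without overlap and 12.5% higher without overlap. Over both times the 6 measured rod markers had a median of 0.01 and the 7 cone markers -0.0089. At 1 week these medians were 0.04 and 0.01.

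Across the 8 arrays, the genes whose profile was most like the mean of the 10 were Spon1 (Pearson r = 0.945), Jam3 (0.937), Sdk1 (0.933), Rab27a (0.932) and Aplp1 (0.925). For Cd9 they were Tspan13, another tetraspanin gene (0.961), Rnf145 (0.945) and Siah1a (0.925). For Dkk3 they were 4930548G14Rik (0.969), Smap2 (0.968) and Cltc (0.959), and for Kcnj10 Zfp764 (0.945), Cyp2c67 (0.938) and Zp1 (0.927). By mean signal 4930548G14Rik lay at percentile 2.9, Cyp2c67 at 1.3 and Zp1 at 24.9. Smap2 lay at 82.6, Cltc at 99.3 and Zfp764 at 74.9. These are the highest of 19938 genes over the same 8 arrays, which were normalized together, and are given as a description.

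**Figure D5:**
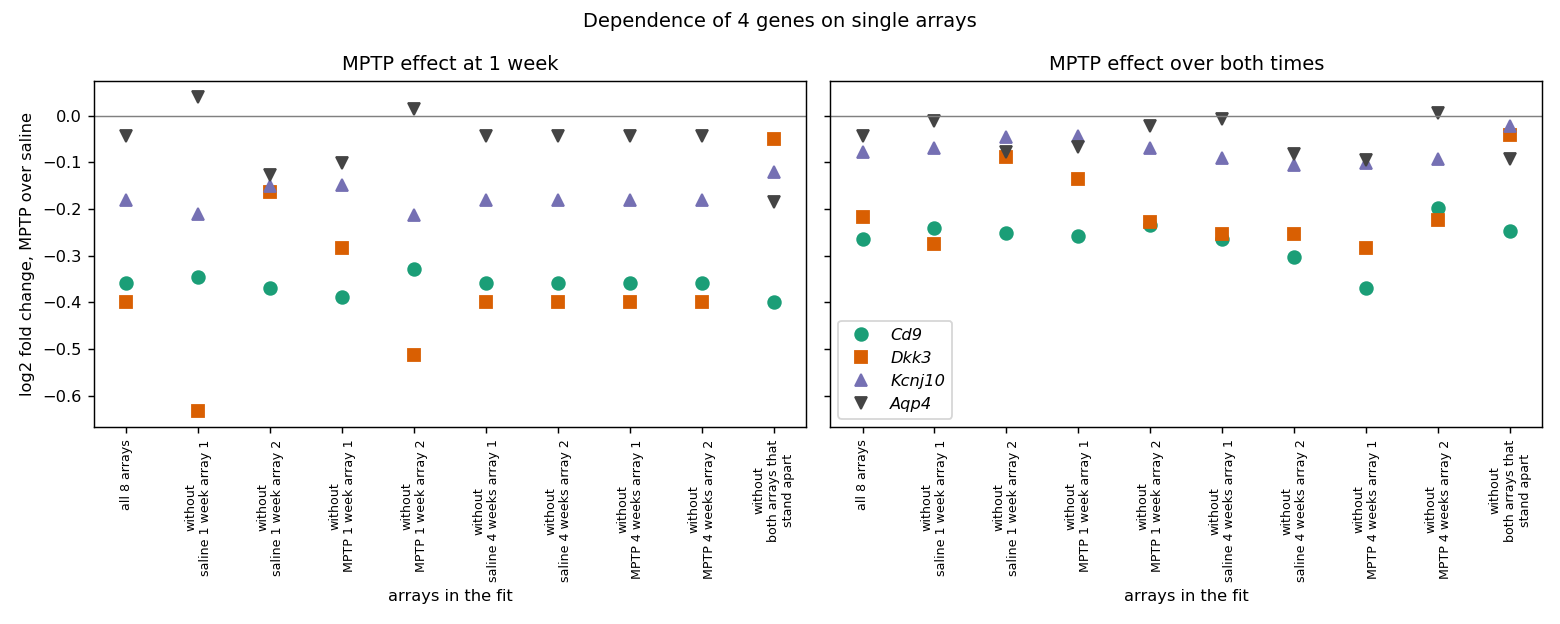
Log2 fold change of MPTP over saline for Cd9, Dkk3, Kcnj10 and Aqp4 with all 8 arrays, with each array left out in turn and without the 2 arrays that stand apart, at 1 week and over both times. Cd9 stays between -0.40 and -0.20 throughout, Dkk3 moves to -0.05 at 1 week without the 2 arrays, and Aqp4 crosses 0.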

How the data were processed

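The authors' deposited values are log2 signals. The submitters' processing notes name RMA and Affymetrix Expression Console, without a version. RNA came from a column kit, and 100 ng was amplified and labelled with biotin, per the labels' protocols. Neither settings nor batches are stated in the sources used here. Of 28944 probe sets, 21789 name exactly 1 gene in the platform annotation, and the probe set with the highest mean was kept for each of 19938 genes. Two-sided limma tests (version 3.58.1 in R 4.3.3, through lmFit, contrasts.fit and eBayes) used a mean per group over 8 arrays (4 residual degrees of freedom), or time and treatment as additive terms (5). P-values were adjusted by Benjamini-Hochberg over all genes, threshold 0.05. The code was tested on simulated data. Figures used Python 3.11.15 and matplotlib 3.10.9.

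The 10 genes and all lists were chosen with earlier results of these data known. Named are all 10 in each comparison, and of the 2 wider lists the genes with the smallest unadjusted p (up to 4), with Rlbp1, Glul and Slc1a3 in the MPTP comparisons. Probe sets with several genes (1621) or no gene entry (5534) were left out. Of the lists, 9 entries had no single-gene probe set and were not analysed here. Each group has 2 arrays, and their number limits the precision. Alternatives were other normalizations, a filter on dim genes, other probe set rules, fits of the compared groups alone, a block for the array number, another estimate of the spread, and arrays left out. The array numbers were not taken to pair the samples, since the labels give no shared source: deviations of same-numbered arrays from their group means, saline against MPTP, correlated across all genes at r = -0.38 at 1 week and 0.12 at 4 weeks. Over the 10 genes alone r was 0.73 and 0.79, values that rest on few genes.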

Additional observations from a re-analysis of the deposited data

How the results depend on the processing

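None of the 10 genes passed in any comparison under any of the 19 alternatives run, and no gene of the array did either, except Rny1 (named after its value was seen) for the change with time in MPTP, which made a count of 1 without MPTP 1 week array 1 and without the 2 arrays that stand apart (log2 fold change -1.69 in both, adjusted p = 0.0117 and 0.0374 by limma, 0 to 1 over single arrays left out). No scaling moved the median of all genes by over 0.1. With 2 arrays a group, a lone array left after leaving 1 out is assumed to vary like the other groups. Under the alternatives the 1 week values ran from -0.40 to -0.33 for Cd9, -0.21 to -0.12 for Kcnj10 and -0.63 to -0.05 for Dkk3. Only Aqp4 of the 10 turned its sign at 1 week. The groups of Cd9, Kcnj10 and Dkk3 do not overlap at 1 week, so leaving arrays out could not turn their signs. Of the other alternatives only the normalizations could move these fold changes, so the kept signs say little about stability.

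With the array number as a replicate block 0 genes were called in each comparison. Each group holds one array of each number, so the block cannot move a fold change (medians -0.08 at 1 week, -0.04 at 4 weeks and -0.06 over both times), only its error, and the unchanged medians say nothing about stability. With the numbers exchanged in MPTP 1 week, an alternative chosen after seeing the data, 0 genes were called in each comparison.

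The signs of values near 0 turned as follows, and the cause was not tested. After quantile and cyclic loess normalization, in that order, Apoe at 4 weeks was 0.012 and 0.019 and the difference of effects of Aqp4 0.045 and 0.049. The change with time in saline was 0.030 and 0.021 for Aqp4 and 0.016 and 0.0053 for Kcnj10, and that in MPTP 0.074 and 0.070 for Aqp4, 0.088 and 0.099 for Gpr37 and 0.084 and 0.091 for Apoe. With cyclic loess the median of the 10 for the change with time in MPTP was 0.12 (0.052 as reported). Centring each array put the change with time in MPTP of Cd9 at -0.0072. Without the 2 arrays that stand apart, the difference of effects was 0.14 for Aqp4, -0.0046 for Car14 and -0.011 for Vim. Without them the change with time was 0.012 for Kcnj10 in saline, and 0.027 for Aqp4 and -0.040 for Dkk3 in MPTP.

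Leaving out single arrays gave these ranges. At 1 week Aqp4 ran from -0.13 to 0.041. At 4 weeks the median of the 10 ran from -0.11 to 0.040, Aqp4 from -0.17 to 0.083, Car14 from -0.087 to 0.025, Cd9 from -0.38 to 0.042, Dkk3 from -0.11 to 0.037, Clu from -0.31 to 0.15 and Apoe from -0.10 to 0.096. Over both times Aqp4 ran from -0.095 to 0.0072 and Gpr37 from -6.7e-04 to 0.077. For the difference of effects the median of the 10 ran from -0.020 to 0.13, Aqp4 from -0.13 to 0.13, Car14 from -0.026 to 0.087, Cd9 from -0.026 to 0.40, Clu from -0.13 to 0.32, Apoe from -0.19 to 0.0091, Vim from -0.060 to 0.17 and Sox9 from -0.018 to 0.079. For the change with time in saline the median of the 10 ran from -0.077 to 0.033, Aqp4 from -0.12 to 0.063, Kcnj10 from -0.046 to 0.012, Clu from -0.11 to 0.21, Vim from -0.078 to 0.15 and Sox9 from -0.0048 to 0.089. For the change with time in MPTP the median of the 10 ran from -0.055 to 0.12, Aqp4 from -0.16 to 0.097, Cd9 from -0.18 to 0.24, Gpr37 from -0.068 to 0.063, Dkk3 from -0.040 to 0.19, Clu from -0.082 to 0.37 and Apoe from -0.11 to 0.088.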
